A study of Saccharomyces cerevisiae with 8 samples.

Results

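The 10 genes IRE1, HAC1, LHS1, SIL1, SCJ1, JEM1, EPS1, CNE1, MPD1 and ERO1 act in protein folding in the endoplasmic reticulum (ER) or in the unfolded protein response. They were chosen by name, and the probes of each gene were averaged on every array. The probes of the arrays carry 5100 strain names, of which 4749 had a value, and 9 of the 10 genes were among these. The lhs1 mutant had 2 probes and no value on any array, so it is not analysed here. The eps1 mutant was read by 1 of its 2 probes, and the other 8 mutants by 2 probes each.

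Ire1 is a kinase and nuclease of the ER membrane that senses unfolded proteins in the lumen. It cuts the HAC1 messenger RNA, which the tRNA ligase Trl1 then joins, so that the transcription factor Hac1 is made and switches on genes for chaperones, glycosylation, export and degradation. In the lumen, the Hsp70 chaperone Kar2 (BiP) works with J-domain partners and nucleotide exchange factors, the lectin Cne1 belongs to the calnexin family, and Ero1 and the protein disulfide isomerases form disulfide bonds. Selenomethionine (SeMet) is methionine with selenium in place of sulfur, and yeast can put it into proteins at methionine positions.

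The strains are haploid and tagged with DNA barcodes, in the BY4741 background (MATa his3 leu2 met15 ura3), which lacks the sulfhydrylase encoded by MET17. They carry either a gene deletion or, for essential genes, a DAmP allele that lowers the messenger RNA. The names do not mark the kind of allele. ERO1, KAR2 and PDI1 are essential in yeast. The pool grew in synthetic complete medium with methionine and cysteine at 0, 12 or 20 µM SeMet. There were 3 arrays of 20 µM SeMet over untreated cells, 2 arrays of 12 µM SeMet over untreated cells, and 3 arrays of untreated cells after growth (16 h per the labels) over cells from the start of the culture (t = 0). The methods describe the 3 cultures of an experiment as grown side by side, so comparisons may share an untreated pool, as the reference for SeMet and as the pool measured for growth. The labels do not tie cultures to arrays, and no correlation between the scores of the comparisons is given.

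Each value is the deposited log2 ratio of a strain's barcode signal, and the fitness score is its mean over the arrays of a group. For SeMet, a score below 0 means that the strain gave less signal, relative to the pool, with SeMet than without. For growth, it means less signal after growth than at t = 0. A SeMet score alone does not show whether a strain's share of the pool rose or fell during the culture. Scores were tested against 0 with limma over all strains, and a strain is called lower or higher at an adjusted p under 0.05. An array held between 4353 and 4722 strains. Between arrays of a group, the median SD of a strain was 0.25 for 20 µM, 0.16 for 12 µM and 0.23 for growth arrays. The third array at 20 µM was the widest of the 8, with an SD over strains of 1.11 against 0.80 and 0.78 on the other arrays of that dose. The treated or grown pool was always labelled with Cy3 and its reference with Cy5, and a dye effect cannot be told apart from one of the pools.

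At 20 µM SeMet, the eps1 and cne1 mutants were called higher and the mpd1 mutant lower. The other 6 mutants, ire1 and hac1 among them, were not called. The score of 7 of the 9 mutants lay within 0.5 of 0, as did that of 3161 of the 4536 strains scored (69.7%). The count of 3 called among 9 stands beside 26.3% of all strains called, with 1 lower beside 13.8% and 2 higher beside 12.5%. The median of the 9 scores was −0.01, and that of all strains was −0.09. At the limits of −1.5 and 1.5 on the score, used in the study to name strains sensitive or resistant, 3.06% of all strains lay below the lower and 5.34% above the upper. None of the 9 mutants passed the lower limit and 1, eps1, passed the upper. The plot of the mutants on every array shows these values.

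**Figure D1:**
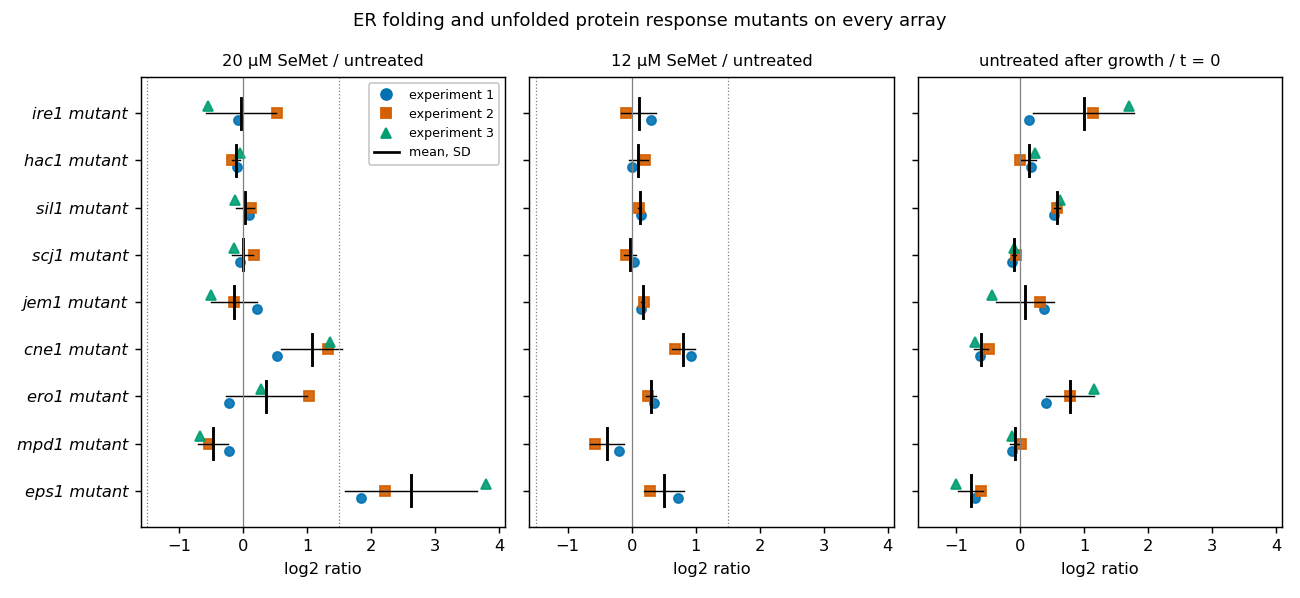
Log2 ratio of each of the 9 mutants (horizontal axis) on every array, at 20 µM SeMet (left), 12 µM SeMet (middle) and for growth without SeMet (right). Points are arrays, thick bars are means, thin lines are 1 SD, and dotted lines mark −1.5 and 1.5. The eps1 mutant lies between 1.84 and 3.80 on the 3 arrays at 20 µM, above every other mutant.

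Neither the mutant of the sensor nor that of the transcription factor was called at either SeMet dose. The ire1 mutant had log2 ratios of −0.08, 0.54 and −0.55 in experiments 1, 2 and 3 at 20 µM SeMet. These values fell on either side of 0, and the score was −0.03 ± 0.54 (SD, n = 3) with a 95% confidence interval from −0.72 to 0.66 (limma, adjusted p = 0.95). The hac1 mutant had log2 ratios of −0.10, −0.18 and −0.05 at the same dose. All 3 were slightly below 0, and the score of −0.11 ± 0.06 (SD, n = 3) was close to the median of all strains (interval −0.35 to 0.13, adjusted p = 0.48). At 12 µM SeMet the ire1 mutant had log2 ratios of 0.30 and −0.09, and the hac1 mutant of 0.00 and 0.21. Neither pair of arrays lay clear of 0, with scores of 0.11 ± 0.28 and 0.10 ± 0.15 (SD, n = 2, adjusted p = 0.95 and 0.84).

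The probes of the ire1 mutant did not give the same values. The lower-numbered probe ranged from −0.08 to 0.26 at 20 µM, whereas the higher-numbered one read 0.81 in experiment 2 and −1.12 in experiment 3, with no value in experiment 1. The spread of the ire1 mutant at this dose came from the second probe. Alone, the lower-numbered probe gave 0.07 ± 0.18 (SD, n = 3) and the other −0.15 ± 1.36 (SD, n = 2). The probes of the hac1 mutant gave −0.28 ± 0.20 and 0.06 ± 0.15 (SD, n = 3 each), and neither was called.

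Kar2 is the Hsp70 chaperone of the lumen, Sil1 and Lhs1 help it to exchange nucleotide, and Scj1 and Jem1 are J-domain partners that stimulate its ATPase. None of the 3 mutants of these partners that had values was called at either dose. The sil1 mutant had log2 ratios of 0.08, 0.12 and −0.13 at 20 µM, a score of 0.03 ± 0.14 (SD, n = 3, interval −0.21 to 0.26, adjusted p = 0.87). The scj1 mutant had −0.05, 0.17 and −0.14, a score of −0.01 ± 0.16 (SD, n = 3, interval −0.25 to 0.24, adjusted p = 0.97). The jem1 mutant had 0.22, −0.14 and −0.51, a score of −0.14 ± 0.36 (SD, n = 3, interval −0.59 to 0.30, adjusted p = 0.62). The values of all 3 mutants lay on either side of 0. At 12 µM their scores were 0.13 ± 0.03 for sil1, −0.02 ± 0.09 for scj1 and 0.17 ± 0.03 for jem1 (SD, n = 2 each). The strain of KAR2 itself, with values from 1 of 2 probes, had 0.33, 0.06 and −0.32 at 20 µM, a score of 0.02 ± 0.33 (SD, n = 3, adjusted p = 0.94).

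Cne1 is the calnexin homologue of yeast, a membrane lectin that binds glycoproteins in the ER. The cne1 mutant had log2 ratios of 0.53, 1.32 and 1.36 in experiments 1, 2 and 3 at 20 µM SeMet. All 3 were above 0, and the score of 1.07 ± 0.47 (SD, n = 3) was the 345th from the top of 4536 (interval 0.67 to 1.47, limma, adjusted p = 0.0028). At 12 µM SeMet it had log2 ratios of 0.93 and 0.68, both again above 0. The score of 0.81 ± 0.18 (SD, n = 2) was not called (adjusted p = 0.15), though it became so with all arrays scaled to the same spread (1.16, adjusted p = 0.017). The probes of this mutant gave near-equal scores at 20 µM, 1.11 ± 0.48 and 1.03 ± 0.47 (SD, n = 3 each), and each was called on its own (adjusted p = 0.0025 and 0.0039). The score at 20 µM exceeded that at 12 µM by 0.26 (interval −0.36 to 0.89), which was not called (adjusted p = 0.72).

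Ero1 is the thiol oxidase that passes electrons from protein disulfide isomerases to oxygen, Mpd1 is a member of the disulfide isomerase family, and Eps1 is a membrane-bound member of the same family. These 3 mutants did not move together. The eps1 mutant had log2 ratios of 1.84, 2.22 and 3.80 at 20 µM SeMet. All 3 lay above the limit of 1.5, with the highest value on the widest array, and the score of 2.62 ± 1.04 (SD, n = 3) was the 79th from the top of 4536 (interval 1.87 to 3.38, limma, adjusted p = 0.00086). Without experiment 3 the score was 2.03. These values rest on 1 probe, so no second tag was at hand to set beside them.

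The eps1 mutant read lower at the lower dose. Its log2 ratios at 12 µM SeMet were 0.73 and 0.29, below all of its values at the higher dose. With so few arrays such a separation can arise by chance, and the share of all strains that showed it was not counted. Over all strains the arrays of the higher dose were also wider, with SDs of 0.80, 0.78 and 1.11 against 0.42 and 0.53. The score of the eps1 mutant at 12 µM, 0.51 ± 0.31 (SD, n = 2), was not called (adjusted p = 0.71). The difference between the doses was 2.12 (interval 0.92 to 3.31), and it did not pass the adjustment over 4364 strains (adjusted p = 0.13). No strain of the pool was called for this difference by limma, 0% in all, while 562 strains, and of the 9 mutants only eps1, had an unadjusted p under 0.05.

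The mpd1 mutant had log2 ratios of −0.22, −0.54 and −0.68 at 20 µM SeMet. All 3 were below 0, and the score of −0.48 ± 0.23 (SD, n = 3) was called lower (interval −0.78 to −0.18, limma, adjusted p = 0.028), at rank 749 from the bottom of 4536. This call was lost without experiment 2 (−0.45, adjusted p = 0.10), without experiment 3 (−0.38, adjusted p = 0.15) and with only the 3 arrays of this dose in the fit (adjusted p = 0.088). It was also lost with the higher-numbered probe alone (−0.41). At 12 µM SeMet the mpd1 mutant had −0.20 and −0.57, a score of −0.38 ± 0.27 (SD, n = 2) that was not called (adjusted p = 0.39). Its probes read −0.17 and −0.98 in experiment 2 at this dose. The ero1 mutant had −0.22, 1.03 and 0.28 at 20 µM, on either side of 0, with a score of 0.36 ± 0.63 (SD, n = 3, interval −0.18 to 0.90, adjusted p = 0.29). Its probes differed in experiment 2, where they read 1.75 and 0.31. At 12 µM it had 0.35 and 0.25, a score of 0.30 ± 0.07 (SD, n = 2, adjusted p = 0.77). The lower-numbered probe of ero1 gave −0.02 at this dose and the other 0.62.

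None of the 9 mutants was called at 12 µM SeMet, where limma called 1.01% of 4368 strains (38 lower and 6 higher). At an unadjusted p under 0.05 there were 2, the cne1 and mpd1 mutants, among 515 strains in all. The median of the 9 scores was 0.13, and that of all strains was 0.00. With the arrays scaled to the same spread, 195 strains were called lower and 176 higher, a different balance from 38 and 6, and cne1 was the only one of the 9 mutants among them.

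**Figure D2:**
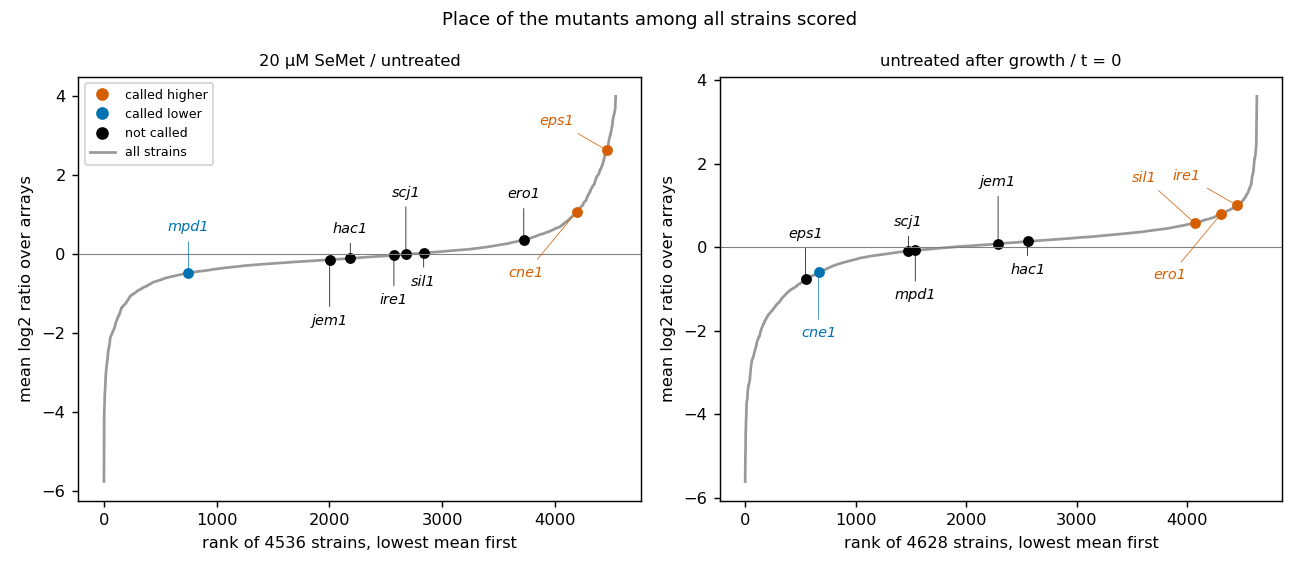
Mean log2 ratio (vertical axis) of all strains in order of score (horizontal axis, lowest first), at 20 µM SeMet for 4536 strains (left) and for growth without SeMet for 4628 strains (right). Coloured points are mutants called higher or lower and black points those not called: eps1 (2.62) and cne1 (1.07) sit on the upper arm at 20 µM and on the lower arm for growth (−0.77 and −0.61).

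Growth without SeMet shows how each mutant fared in the untreated pool. The sil1, ire1 and ero1 mutants were called higher and the cne1 mutant lower, 4 of 9 beside 26.9% of all strains (3 higher beside 14.2% and 1 lower beside 12.7%). With each array centred on its median, the calls over all strains went from 588 lower and 656 higher to 665 lower and 441 higher, and of the 9 mutants the calls of ire1 and ero1 were lost. The median of the 9 scores was 0.08, equal to that of all strains at this precision.

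The sil1 mutant had log2 ratios of 0.52, 0.58 and 0.62 for growth. Its 3 arrays lay close together and above 0, with a score of 0.57 ± 0.05 (SD, n = 3, limma, adjusted p = 0.0064), and leaving out any 1 of the 8 arrays did not end this call. The lower-numbered probe gave 0.89 and the higher-numbered 0.25, which alone was not called (adjusted p = 0.14). The ire1 mutant had 0.14, 1.15 and 1.70, a score of 1.00 ± 0.79 (SD, n = 3, adjusted p = 0.043). The higher values of experiments 2 and 3 came from the probe that also varied at 20 µM, which read 2.00 and 2.97 there and had no value in experiment 1. The other probe read 0.14, 0.29 and 0.43, and alone was not called (0.29, adjusted p = 0.11). The plot of single probes shows this gap.

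**Figure D3:**
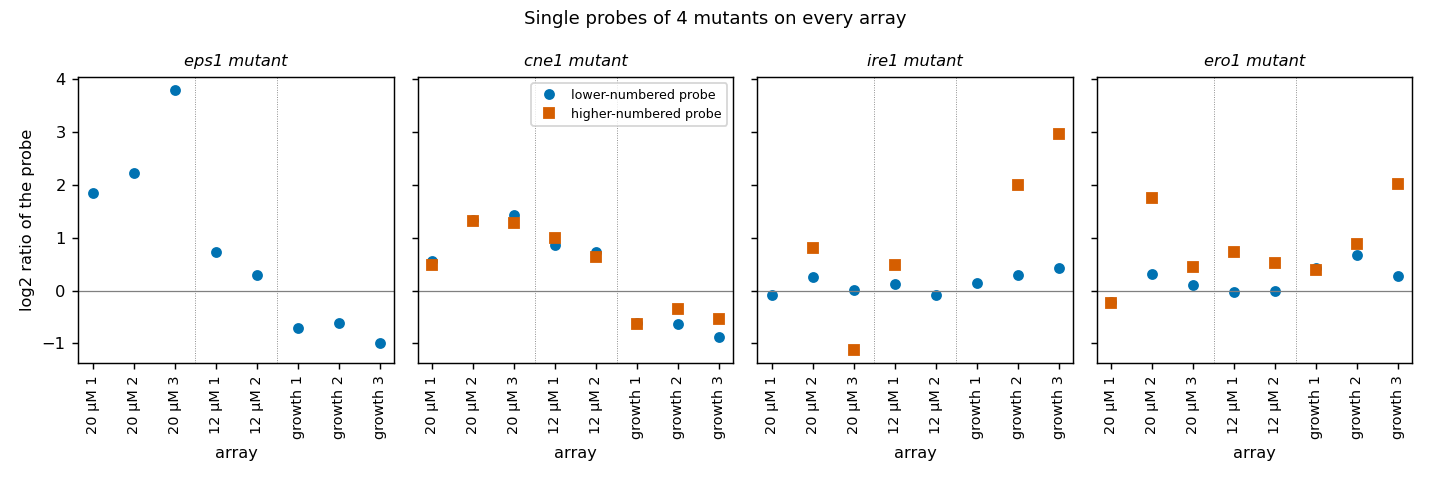
Log2 ratio of single probes (vertical axis) on every array (horizontal axis: 20 µM SeMet, 12 µM SeMet and growth, with experiment numbers) for the eps1, cne1, ire1 and ero1 mutants. The cne1 probes share their sign on every array, whereas those of ire1 differ most for growth, at 0.29 and 2.00 in experiment 2 and at 0.43 and 2.97 in experiment 3.

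The ero1 mutant had log2 ratios of 0.41, 0.78 and 1.15 for growth, all above 0, a score of 0.78 ± 0.37 (SD, n = 3, adjusted p = 0.041). Its lower-numbered probe gave 0.46 and the other 1.10, with 0.28 and 2.02 in experiment 3. The cne1 mutant had −0.63, −0.49 and −0.70, all below 0, a score of −0.61 ± 0.11 (SD, n = 3, adjusted p = 0.035). The eps1 mutant was lower still, at −0.71, −0.62 and −0.997. Its score of −0.77 ± 0.20 (SD, n = 3) was not called in the fit over all groups (adjusted p = 0.12). It was called under 2 of 9 other settings, 1 of them with only the 3 growth arrays in the fit (adjusted p = 0.020). With arrays left out, it was called without experiment 3 at 20 µM (adjusted p = 0.0089). The calls of ire1, ero1 and cne1 did not hold with single arrays left out. Each was lost without growth experiment 2 or 3 or without either 12 µM array, ero1 and cne1 also without growth experiment 1, ire1 also without experiment 1 at 20 µM and ero1 without experiment 3 at 20 µM, at adjusted p from 0.051 to 0.20. The hac1, scj1, jem1 and mpd1 mutants had scores between −0.10 and 0.14 and were not called.

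The remaining 102 genes of the ER folding and secretory pathway lists were scored for 87 strains at 20 µM SeMet, with 7 called lower and 16 higher and a median of 0.08, beside −0.09 over all strains. Over all strains 26.3% were called, 13.8% lower and 12.5% higher, and as a total the called share of these lists was near that background. Of the 5 signalling genes of the unfolded protein response, the mutants of the phosphatases that act on Ire1 were both lower: ptc2 had −0.90, −0.85 and −1.32, a score of −1.02 ± 0.26, and dcr2 had −0.89, −1.003 and −0.75, a score of −0.88 ± 0.12 (SD, n = 3, limma, adjusted p = 0.00086 and 0.00085). Both phosphatases are known to dampen the response, and whether this bears on the scores was not tested. Neither mutant was called at 12 µM or for growth. TRL1, which encodes the ligase that joins the HAC1 messenger, gave 0.08 ± 0.15 (SD, n = 3, adjusted p = 0.66).

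No strain of the ER Hsp70 list (5 scored of 7) or of 3 other folding factors was called by limma at 20 µM, and 1 in each list had an unadjusted p under 0.05. In the lectin and glycan trimming list (5 scored of 6) cne1 was the only strain called, and the other 4 had scores between 0.02 and 0.22. In the disulfide list (6 scored of 7; PDI1 has no value) 2 strains were lower and 1 higher, the mpd1 and eps1 mutants described above and erv2, which lacks a second thiol oxidase, at −0.46 ± 0.19 (SD, n = 3, adjusted p = 0.027). No strain of the translocation and signal peptidase list (17 scored of 21) was called by limma, and 5 had an unadjusted p under 0.05. Over all strains, 1763 of 4536 had an unadjusted p under 0.05 at this dose.

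Strains mutated in N-glycosylation were called in 1 direction, higher, beside 12.5% of all strains. The lists were chosen with earlier results of these data known, so their shares are a description and not a test. In the oligosaccharyltransferase list 5 of 7 scored strains were called higher and none lower, with a median of 0.66. Its highest scores were those of ost4 (2.01 ± 0.77), wbp1 (0.98 ± 0.26) and ost3 (0.86 ± 0.01), subunits of the enzyme that moves the glycan to the protein (SD, n = 3, adjusted p = 0.0047, 0.0014 and 0.00076). In the list for synthesis of the lipid-linked oligosaccharide 7 of 15 scored strains were higher and none lower, with a median of 0.57. The highest called were die2 (1.32 ± 0.30), mutated in the glucosyltransferase that adds the last glucose, rer2 (1.16 ± 0.55) in dolichol synthesis and dpm1 (1.07 ± 0.59), which makes dolichol phosphate mannose (SD, n = 3, adjusted p = 0.0011, 0.0097 and 0.012). In protein O-mannosylation, pmt2 was the 1 strain called among 5, at 0.81 ± 0.41 (SD, n = 3, adjusted p = 0.030).

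The GET pathway inserts tail-anchored proteins into the ER membrane. All 6 of its strains had scores below −0.85, 4 of them called lower, beside 13.8% of all strains, with a median of −1.16. This list too was chosen with earlier results known, so its share is no independent test. The lowest was get2, a subunit of the membrane receptor, with −2.20, −2.49 and −1.52 on the 3 arrays and a score of −2.07 ± 0.50 (SD, n = 3, adjusted p = 0.00068), followed among the called by get3 at −1.24 ± 0.38 and get4 at −1.10 ± 0.63 (SD, n = 3, adjusted p = 0.000895 and 0.0079). Among receptors for cargo leaving the ER 1 of 7 was called, the lectin mutant emp46, with 2.10, 2.13 and 3.35 and a score of 2.53 ± 0.71 (SD, n = 3, adjusted p = 0.00040). In ER-associated degradation 2 of 15 were called higher, a share near the 12.5% of all strains, der1 at 0.97 ± 0.28 and cue1 at 0.79 ± 0.44 (SD, n = 3, adjusted p = 0.0054 and 0.015). At 12 µM SeMet none of these 102 genes was called by limma among 84 scored. An unadjusted p under 0.05 was found for 10 of them, beside 515 of 4368 strains in all. The get2 strain was not scored at 12 µM, where it read −1.48 in experiment 1 and had no value in experiment 2.

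**Figure D4:**
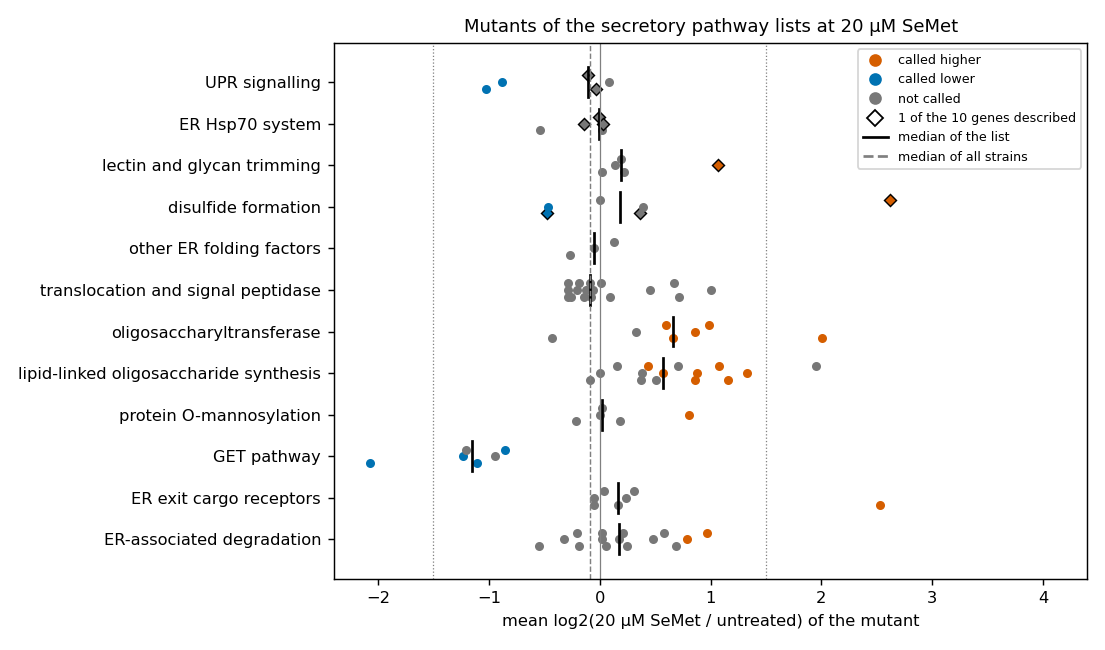
Mean log2 ratio at 20 µM SeMet (horizontal axis) of every scored strain of 12 gene lists (vertical axis). Diamonds are the genes described first, coloured points are called strains, black bars are list medians and the dashed line is the median of all strains (−0.09): the GET list lies lowest (median −1.16) and the oligosaccharyltransferase list highest (0.66).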

How the data were processed

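The authors amplified barcodes from genomic DNA with dyed primers, hybridized custom Agilent slides, scanned them in a GenePix scanner and normalized the spot values with R scripts. The deposited values are log2 ratios of Cy3 over Cy5 per probe. The background correction and normalization are not given in the sources used here, and the values were used as deposited. Names came from the platform annotation, and locus tags and neighbours from the R64 assembly.

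Probes of a gene were averaged on each array. A strain entered a group's test if 2 or more of its arrays gave a value. One limma fit (version 3.58.1, R 4.3.3) held the 3 groups of the 8 arrays. Tests were two-sided, and p-values were adjusted by Benjamini-Hochberg over all strains tested. The fit was tested on simulated data. The labels name the experiments biological replicates, and 2 or 3 arrays per group set the precision.

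The genes and lists were chosen with earlier results of these data known. All 10 genes are named, with KAR2, and from other lists at most 3 of the lowest and 3 of the highest called strains, and the 3 strains most like ire1 and hac1. Alternatives were centring, scaling, the group's own arrays, probe medians, single probes, stricter strain filters, robust eBayes, another estimate of the spread, a replicate block and leaving out each array. Single probes and the estimate of the spread were added after seeing the data. The labels do not say whether arrays of the same number share cultures, so the block was an alternative and not part of the main test.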

Additional observations from a re-analysis of the deposited data

How the results depend on the processing

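No called value changed sign, and over the alternatives 601 of 672 values stayed the same. For a mutant this means the same sign and call, and for a count a value within a fixed ratio of the main count. At 20 µM SeMet the number of the 9 mutants called was 3, and with the higher-numbered probe of each gene alone it was 1. Leaving out 1 array gave 2 to 3. With a limit of 1 on the score, 2 of them passed it in place of 1. At 12 µM SeMet 1 was called with arrays scaled to the same spread, in place of 0. For growth the 4 calls became 2 with centred arrays, 1 with the higher-numbered probe alone, and between 1 and 4 with 1 array left out. The single probe of eps1 was counted as lower-numbered, so tests of the higher-numbered probe covered 8 of the 9 mutants at 20 µM and for growth.

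Over all strains, leaving out 1 array gave 735 to 1266 calls at 20 µM (735 without experiment 3), 4 to 69 at 12 µM (14 and 4 without its own arrays, 69 without 20 µM experiment 3, 21 without growth experiment 1 or 2), and 481 to 1356 for growth (481, 569 and 829 without its own arrays 1, 2 and 3). The 44 calls at 12 µM became 371 with scaled arrays and 160 with only the 2 arrays of that dose. The difference between doses, with 0 calls, gave 23 with scaled arrays, 4 with at least 2 probes, 16 with values on all 8 arrays, 5 with robust eBayes, 17 with the spread estimated from the scored strains, and 0 to 37 with 1 array left out (37 without 20 µM experiment 1, 20 without experiment 3). None of the 9 mutants was called for this difference under any of these. Where an arm was left with 1 array, that array was assumed to vary like the other groups.

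The labels do not say whether same-numbered arrays share cultures. Their deviations from the group means correlated from −0.27 to 0.16, with 1 of 7 pairs over 0.1. Deviations from a mean of 2 or 3 arrays depend on each other, so these values cannot show whether cultures were shared. With the number as a replicate block, the calls among the 9 mutants stayed at 3 at 20 µM and 0 at 12 µM, and fell to 2 for growth. Over all strains the block gave 1154 calls at 20 µM, 27 at 12 µM, 997 for growth and 0 for the difference.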

Other observations

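The values of the neighbouring genes were looked up after the scores of cne1 and eps1 had been seen. The neighbour of CNE1 on one side is ECM1, which encodes a factor for export of the large ribosomal subunit. The ecm1 mutant had a score of 2.92 ± 1.05 (SD, n = 3) at 20 µM SeMet (limma, adjusted p = 0.00056), 1.06 ± 0.34 (SD, n = 2) at 12 µM and −0.11 ± 0.19 (SD, n = 3) for growth. At 20 µM it stood above the cne1 mutant, and for growth it lay near 0 where cne1 was at −0.61. The part of this neighbour in the cne1 values was not tested. The strain of GPB2, on the other side of CNE1, was not scored. The neighbours of EPS1 gave −1.06 ± 0.35 for yia6 (adjusted p = 0.031) and −0.44 ± 0.68 for bet1 (adjusted p = 0.21) at 20 µM (SD, n = 3 each), both below 0 where eps1 was at 2.62. The scored neighbour of MPD1, YOR289W, gave −0.47 at 20 µM (limma, adjusted p = 0.11) and −0.65 at 12 µM (adjusted p = 0.33). The mpd1 mutant was at −0.48 and −0.38. The part of these neighbours in the eps1 and mpd1 values was not tested.

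Likeness was measured as Pearson's r over the 8 arrays among the 4208 other strains with all 8 values. The arrays may share their pools, and r follows the shape of a profile and not its level, so it stands here as a description. The strains most like ire1 were those of TRM7 (0.986), YKT6 (0.976) and CDC7 (0.964), and hac1 ranked 2030th with r = 0.29. The strains most like hac1 were TDA3 (0.946), HTB1 (0.944) and MMT2 (0.929), and ire1 ranked 2035th. Both values include the ire1 probe that differed from the other, and r was not computed without it. The same look at eps1 and cne1 was added after their values had been seen. It gave RKM4 (0.997), ECM1 (0.995) and RPL11B (0.995) for eps1, and MTR2 (0.991), AEP1 (0.991) and MMR1 (0.987) for cne1. Scores at 20 µM were 1.75 for rkm4 and 3.42 for rpl11b, but 0.37 for mtr2, 0.19 for aep1 and 0.75 for mmr1, whose scores for growth ranged from −2.64 to −1.498.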
